A study of Mus musculus with 9 samples.

Results

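Kidneys of C57BL/6 mice taken 7 days after a single intraperitoneal injection of cisplatin at 20 mg/kg were compared with kidneys of sham mice given the same volume of saline, by bulk RNA sequencing. The comparison rests on 6 of the 9 libraries of the study, 3 per group. The other 3 come from day 3 after the same dose and entered the model only to share its estimate of the spread and to place the day 7 values. Age and sex are not given in the labels used here. Each library is called a biological repeat, and the p-values below measure the spread between these libraries. Of 55385 genes in the files, the 13718 with at least 1 FPKM (sequenced fragments scaled to the length of the transcript and to the size of the library) in 3 or more of the 9 libraries entered the test. Changes are on the log2(FPKM + 1) scale, day 7 minus sham, with standard errors (SE) from limma, and a gene is said to be called when its adjusted p in limma is under 0.05. Markers of kidney tubules were expressed in all 6 libraries: all 40 proximal tubule transport genes of the list passed the filter, Slc34a1 was at 393.54 FPKM or more, and Umod, the main protein of the thick ascending limb, was at 894.46 FPKM or more.

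Cisplatin, a platinum compound, crosslinks DNA. It enters the proximal tubule, the nephron segment that reabsorbs most of the filtrate, in part through the organic cation transporter encoded by Slc22a2. In rodents a single high dose produces acute tubular necrosis over the first days, with loss of transporter expression, activation of p53 and secretion of injury proteins such as KIM-1 (Havcr1) and NGAL (Lcn2), and surviving cells can then divide and restore the epithelium. Restoring that epithelium depends on mitochondria, because tubular transport is fuelled mainly by oxidation of fatty acids, ketone bodies and lactate.

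At day 7, 4075 genes were called, 29.7% of those tested. Of these, 2646 were higher (19.3% of tested genes) and 1429 lower (10.4%), and 564 (4.11%) changed at least 2-fold. The share of called genes that were higher, 64.9%, depended on the scaling of the libraries: it was 47.5% with median-of-ratios scaling, 52.7% with quantile normalization and 84.8% when genes encoded by mitochondrial DNA were left out of the FPKM total. The last of these moved the median change of all genes by 0.15, from 0.06 to 0.21. Sham and day 7 values did not overlap for 6678 tested genes (48.7%). For scale, 8214 genes (59.9%) were called between day 3 and sham, and 7603 (55.4%) between day 7 and day 3.

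The called changes followed the base composition of the transcripts. In genes sorted into 10 equal bins by the GC content of the longest annotated transcript, the median log2 change fell in every step, from 0.60 in the bin with the lowest GC content (median 39.7%) to -0.40 in the bin with the highest (median 59.5%). In the lowest bin 57.2% of genes were called higher and 0.365% lower. In the highest bin 0.802% were called higher and 32.6% lower. Of the genes called higher that have a GC value, 2455 of 2645 (92.8%) lay below the median GC content of tested genes, 49.8%, and of those called lower 1274 of 1429 (89.2%) lay above it. The trend was in each day 7 library: the median of the lowest bin minus that of the highest was 0.96, 1.08 and 1.02 in the 3 day 7 libraries against the sham mean, and -0.06, -0.13 and 0.20 in the sham libraries, each against the mean of the other 2. The day 3 libraries had gaps of 0.75, 0.65 and 0.62. Transcript length moved with it, with a median change of -0.23 in the second shortest of 10 length bins and 0.40 in the longest. Such a trend can come from the making of the libraries or from the kidneys; the labels name no extraction or library batch, so the 2 cannot be told apart here.

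**Figure D1:**
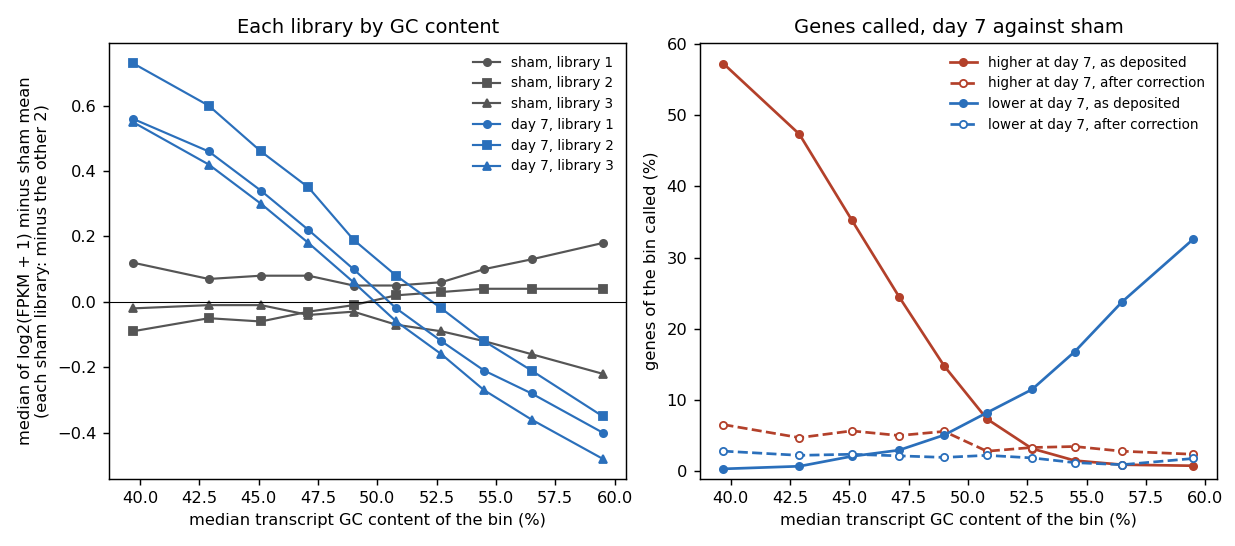
Left, the median over genes of log2(FPKM + 1) in 10 bins of transcript GC content, for each day 7 library (blue) minus the mean of the 3 sham libraries and for each sham library (grey) minus the mean of the other 2; right, the percentage of genes of each bin called higher (red) or lower (blue) at day 7, as deposited (filled) and after the GC and length correction (open, dashed). The 3 day 7 libraries fall steadily across the bins while the sham libraries stay within 0.22 of 0, and the corrected shares of called genes lie between 0.948% and 6.57% in every bin.

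Coding stretches of 6 genes, picked by GC content from those that changed most, illustrate the base composition of transcripts. The genes shown come from the largest increases and decreases called in both fits, which are described below. Of those with no near copy in the transcriptome, they are the 3 increases with the lowest transcript GC content and the 3 protein-coding decreases with the highest, each by a 90-base stretch of 1 coding exon whose GC content is nearest to that of the whole transcript (GRCm38, GENCODE M21, 5′ to 3′ on the coding strand). G and C are in capitals.
Slc8a1 (chr17:81649456-81649545, - strand, exon 1 of 10, transcript GC 40.2%): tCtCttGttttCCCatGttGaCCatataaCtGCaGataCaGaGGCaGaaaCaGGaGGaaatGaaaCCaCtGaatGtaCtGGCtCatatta
Sacm1l (chr9:123590801-123590890, + strand, exon 20 of 20, transcript GC 40.4%): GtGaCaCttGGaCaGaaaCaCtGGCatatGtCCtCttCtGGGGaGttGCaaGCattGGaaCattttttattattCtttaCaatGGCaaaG
Pcmtd2 (chr2:181842461-181842550, + strand, exon 3 of 7, transcript GC 40.7%): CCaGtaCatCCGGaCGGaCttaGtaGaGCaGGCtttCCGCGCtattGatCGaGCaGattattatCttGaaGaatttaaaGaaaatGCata
Ecm1 (chr3:95736600-95736689, - strand, exon 7 of 11, transcript GC 58.3%): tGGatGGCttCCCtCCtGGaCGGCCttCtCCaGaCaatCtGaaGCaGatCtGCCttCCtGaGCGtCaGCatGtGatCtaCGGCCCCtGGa
Coq10a (chr10:128368064-128368153, - strand, exon 2 of 5, transcript GC 56.6%): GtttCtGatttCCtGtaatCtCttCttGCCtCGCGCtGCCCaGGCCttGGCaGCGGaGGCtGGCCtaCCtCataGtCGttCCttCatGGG
Ly6e (chr15:74958493-74958582, + strand, exon 4 of 4, transcript GC 55.4%): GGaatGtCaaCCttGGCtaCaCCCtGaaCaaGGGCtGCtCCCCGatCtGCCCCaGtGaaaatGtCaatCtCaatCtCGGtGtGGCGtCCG
The stretches of the 3 genes that rose hold 36, 36 and 37 G or C bases of 90, and those of the 3 that fell hold 52, 51 and 50. The genes were picked by transcript GC content and each stretch was chosen to match its transcript. These counts therefore describe the transcripts shown and test nothing.

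A GC and length correction, which removes from each library a smooth curve of log2(FPKM + 1) on transcript GC content and on transcript length before the same limma fit, left 856 called genes of 13707, or 6.24%, with 584 higher (4.26%) and 272 lower (1.98%). The genes called higher then had a median GC content of 47.8% and those called lower 48.3%, against 43.7% and 55.9% as deposited. Called in both fits were 681 genes, 487 higher and 194 lower, all in the same direction. Another 3394 genes were called only as deposited and 175 only after the correction. The corrected calls were sensitive to single libraries: without 1 library at a time they numbered between 98 (without day 7 library 1) and 661 (without sham library 3), and 68 genes, 43 higher and 25 lower, were called in both full fits and in all 6 corrected fits that leave out a library. The changes below are given first as deposited and then after the correction, so that calls made with and without the GC and length trend can be set apart.

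Of the 10 largest increases called in both fits, 9 are described here. Sacm1l (chromosome 9, 123529759 to 123592600), which encodes the phosphatase SAC1 that removes phosphate from phosphatidylinositol 4-phosphate, was at 1.9, 2.04 and 2.66 FPKM in sham kidneys against 11.29, 13.92 and 13.39 at day 7. Every day 7 library was above every sham library, which the choice of these 9 genes required. The log2 change was 2.12 (SE 0.20, adjusted p 0.00127), and 1.61 after the correction (adjusted p 0.00947). It was called in all 6 corrected fits without a library.

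Oxct1 (chromosome 15, 4026383 to 4155344) encodes the mitochondrial enzyme that activates ketone bodies for oxidation. It was at 24.63, 53.73 and 80.34 FPKM in sham kidneys against 148.06, 168.3 and 183.55 at day 7, so the day 7 values lay close together and above a spread sham group. The log2 change was 1.78 (SE 0.37, adjusted p 0.00928), and 1.64 after the correction (adjusted p 0.0381); after the correction it kept its call in 2 of the 6 fits without a library. Slc8a1 (chromosome 17, 81373105 to 81738377), the sodium-calcium exchanger NCX1 of the distal convoluted and connecting tubule, was at 0.79, 3.24 and 3.14 FPKM in sham kidneys against 9.14, 11.33 and 12.39 at day 7. Its log2 change of 1.91 (SE 0.30, adjusted p 0.00313) was 1.21 after the correction (adjusted p 0.0498), which passed the threshold narrowly and in 1 of the 6 fits without a library. Slc10a5, a member of the bile acid transporter family, was at 1.94, 2.74 and 5.02 FPKM in sham kidneys against 11.08, 11.78 and 12.56 at day 7. Adam10, a membrane protease that sheds cell surface proteins, was at 5.72, 1.76 and 3.33 FPKM in sham kidneys against 13.36, 14.19 and 13.67 at day 7.

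Eif5, a translation initiation factor, rose from 4.22, 4.91 and 6.7 FPKM to 12.34, 19.8 and 29.4. Relative to the mean, its day 7 values had the widest spread of these genes. Pcmtd2 rose from 2.9, 4.23 and 3.33 FPKM to 15.48, 15.94 and 16.11, and Ppp4r2, a regulatory subunit of protein phosphatase 4, from 1.37, 1.14 and 3.47 to 10.44, 10.79 and 8.52. Slc10a5, Adam10, Eif5, Pcmtd2 and Ppp4r2 had log2 changes of 1.66 (SE 0.23), 1.77 (SE 0.29), 1.72 (SE 0.27), 1.92 (SE 0.25) and 1.94 (SE 0.25), and after the correction 1.25, 1.24, 1.21, 1.42 and 1.36. Each was called after the correction in 1 or 2 of the 6 fits without a library. The largest change, 4.21 (SE 0.62, adjusted p 0.0024), was that of Hnrnpa3, an RNA-binding protein gene listed at 0.28, 0.27 and 0.15 FPKM in sham kidneys against 21.14, 25.12 and 19.53 at day 7. Hnrnpa3 has 34 near copies in the annotation, whose FPKM summed to 52.3, 64.6 and 76.1 in sham and 109, 148 and 127 at day 7, so its own value depends on how reads were shared between copies and is uncertain. Ppp4r2 has 3 near copies, 2 of which are expressed at 1 FPKM or more, and is uncertain for the same reason.

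Among the 10 largest decreases called in both fits, Tmem252 (chromosome 19, 24674008 to 24682233), which encodes a small transmembrane protein, had the largest. It was at 73.59, 47.55 and 53.07 FPKM in sham kidneys against 16.73, 8.72 and 11.8 at day 7, a log2 change of -2.16 (SE 0.30, adjusted p 0.00209) that was -2.49 after the correction (adjusted p 0.00947). Its transcript has 46.4% GC, below the median of tested genes, and its decrease ran against the trend. Gapdh (chromosome 6, 125161715 to 125166467), the glycolytic enzyme often used as a reference gene, was at 57.44, 84.03 and 51.14 FPKM in sham kidneys against 20.14, 20.49 and 16.2 at day 7. The log2 change was -1.68 (SE 0.20, adjusted p 0.00152) and -1.55 after the correction (adjusted p 0.00947), and day 7 was also below day 3 (41.72, 49.61 and 37.6 FPKM). Tmem252 and Gapdh were called in all 6 corrected fits without a library, as were Coq10a, Mif and the small nucleolar RNA Snord104.

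Coq10a, a mitochondrial protein that binds coenzyme Q, fell from 11.14, 8.71 and 7.17 FPKM to 2.64, 1.81 and 2.05. Mif, a cytokine that macrophages and epithelia release, fell from 186.8, 177.17 and 150.97 FPKM to 68.23, 57.31 and 58.24. Dhrs3, an enzyme that turns retinaldehyde back into retinol, fell from 131.71, 104.53 and 65.48 FPKM to 30.2, 30.62 and 26.25. In each of these genes all day 7 values lay below all sham values, as their choice required. Their log2 changes were -1.65 (SE 0.18), -1.47 (SE 0.13) and -1.70 (SE 0.23), and -1.13, -0.83 and -1.52 after the correction. Cish, an inhibitor of cytokine signalling, was at 9.67, 5.59 and 20.24 FPKM against 1.81, 2.64 and 2.72 at day 7. Ly6e was at 109.45, 73.91 and 86.53 against 28.05, 25.13 and 38.26, and Ecm1 at 28.87, 34.01 and 27.79 against 7.45, 12.33 and 10.19. Rps10, a ribosomal protein gene with 2 expressed pseudogene copies and so an uncertain level, was at 70.58, 73.98 and 61.07 against 22.13, 27.08 and 20.91. Cish, Ly6e, Ecm1 and Rps10 had log2 changes of -1.76, -1.53, -1.53 and -1.52. After the correction these were -1.70, -1.17, -1.03 and -0.85. Of the 6 corrected fits without a library, 1 called Cish and 4 called Ly6e. Dhrs3, Ecm1 and Rps10 were each called in 3. Snord104 is a short RNA, whose FPKM depends strongly on fragment length. It was at 9.73, 7.08 and 7.54 in sham and 2.02, 2.38 and 2.17 at day 7.

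**Figure D2:**
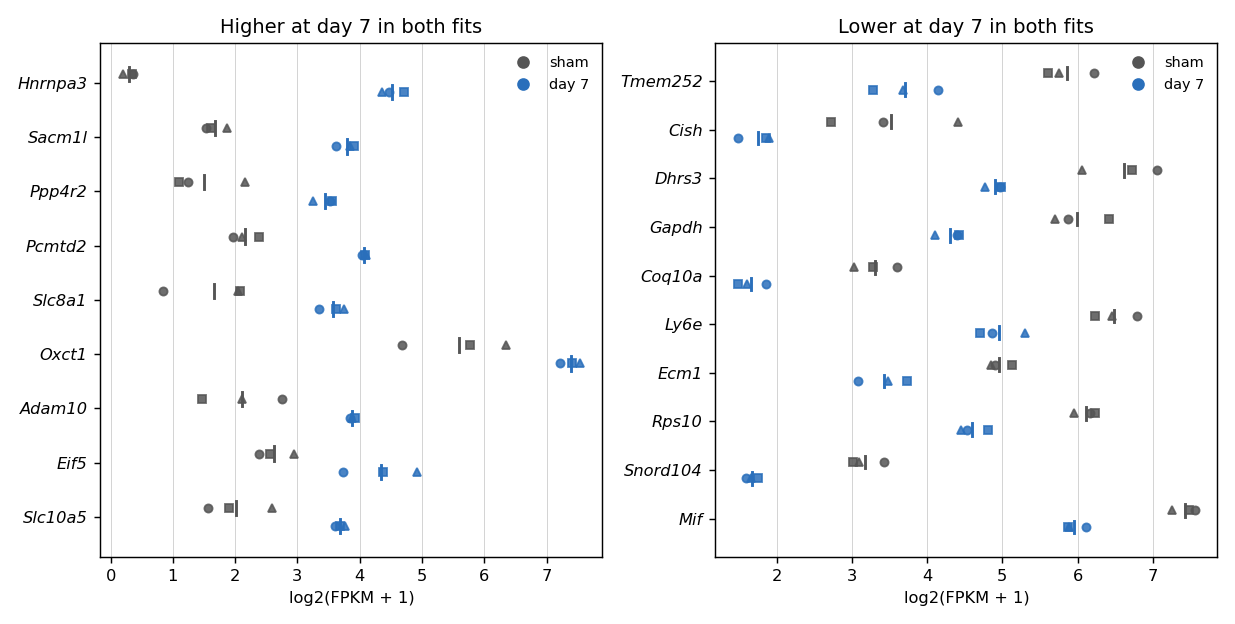
log2(FPKM + 1) in each sham (grey) and day 7 (blue) library for 9 of the 10 largest increases (left) and the 10 largest decreases (right) called in both fits; circles, squares and triangles are libraries 1, 2 and 3, and the vertical tick is the group mean. These genes were chosen for groups that do not overlap. The 3 day 7 points of each gene therefore lie entirely on 1 side of the 3 sham points. The largest gap is that of Hnrnpa3, and Oxct1 and Cish have the widest sham spread.

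Some of the largest deposited changes did not pass after the correction. Gatm, the first enzyme of creatine synthesis in proximal tubule cells, stood at 10.73, 84.28 and 143.18 FPKM in sham kidneys against 212.79, 298.66 and 298.93 at day 7, a log2 change of 2.35 (SE 0.77, adjusted p 0.0481) and 2.02 after the correction (adjusted p 0.149). Its sham library 1 was far below the other 2. Angptl4, a fasting-induced inhibitor of lipoprotein lipase, was at 57.57, 7.92 and 18.29 FPKM in sham kidneys against 3.57, 3.58 and 1.74 at day 7, with adjusted p 0.0183 as deposited and 0.0565 after the correction. Gadd45g, a stress-induced growth arrest gene, was at 28.71, 51.44 and 108.5 FPKM in sham kidneys against 8.86, 12.62 and 8.71 at day 7, with adjusted p 0.00439 and 0.0543. The others of this kind were Idi1 (below) and Reps2, which were higher, and Tmem37, which was lower; their adjusted p after the correction was 0.0914, 0.0745 and 0.0543.

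Several enzymes that feed and turn the TCA cycle rose in both fits. Of 28 genes of the TCA cycle and pyruvate list, 5 were called higher and 1 lower as deposited, and the same 6 genes were called after the correction, when 4.26% of all tested genes were called higher and 1.98% lower. As deposited, with 19.3% called higher, the count was near the background. Sucla2 (chromosome 14, 73525319 to 73596142), the ATP-forming subunit of succinyl-CoA ligase, was at 12.87, 15.36 and 18.23 FPKM in sham kidneys against 41.24, 35.85 and 42.56 at day 7. Its log2 change was 1.32 (SE 0.14, adjusted p 0.00128) and 1.0 after the correction (adjusted p 0.0102). Dld (chromosome 12, 31331277 to 31351453), the lipoamide dehydrogenase shared by the pyruvate, 2-oxoglutarate and branched-chain ketoacid dehydrogenase complexes, was at 35.98, 38.03 and 42.69 FPKM in sham kidneys against 85.44, 89.52 and 89.05 at day 7. Its log2 change was 1.16 (SE 0.10, adjusted p 0.0011) and 0.72 after the correction (adjusted p 0.00975). Both were called in all 6 corrected fits without a library.

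The other 3 were the pyruvate dehydrogenase subunits Dlat and Pdha1 and the isocitrate dehydrogenase subunit Idh3a. Dlat was at 15.97, 16.7 and 18.95 FPKM in sham kidneys against 32.86, 31.79 and 33.88 at day 7. Pdha1 was at 94.49, 90.95 and 105.74 FPKM in sham kidneys against 160.8, 147.06 and 159.12 at day 7, and Idh3a at 21.49, 27.53 and 26.48 against 39.4, 46.28 and 42. Day 7 was above sham in all libraries of these 3 genes, with log2 changes after the correction of 0.68, 0.44 and 0.61 (adjusted p 0.0202, 0.0385 and 0.029). The partner subunit Idh3g fell, from 70.24, 78.31 and 72.99 FPKM to 48.89, 49.11 and 50.17, by 0.47 on the log2 scale after the correction (adjusted p 0.0423). Without 1 library at a time, 5 to 7 members were called higher as deposited. After the correction the count fell to 3 without sham library 1 and to 2 without sham library 2 or any 1 of the day 7 libraries. Idh3g was called in none of the 6 corrected fits without a library.

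**Figure D3:**
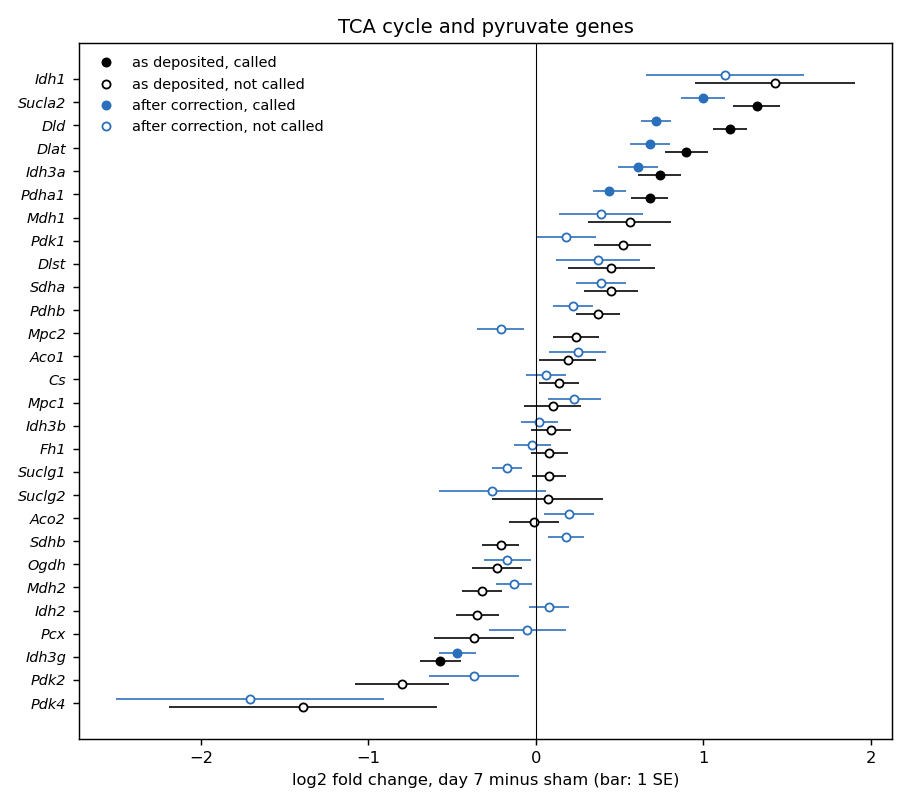
log2 fold change, day 7 minus sham, with 1 SE, for the 28 tested genes of the TCA cycle and pyruvate list, as deposited (black) and after the GC and length correction (blue); filled points have an adjusted p under 0.05. Sucla2, Dld, Dlat, Idh3a and Pdha1 lie to the right of 0 and Idh3g to the left in both fits; Idh1 and Pdk4 have large estimates with wide errors and were not called.

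Nuclear genes of the respiratory chain went both ways. Of 49, 5 were called higher and 15 lower as deposited, against backgrounds of 19.3% and 10.4%. After the correction 4 were higher and 5 lower, against 4.26% and 1.98%. Ndufs1, the largest complex I subunit, was at 11.73, 17.91 and 22.35 FPKM in sham kidneys against 35.19, 36.95 and 39.42 at day 7 (log2 change 1.10, and 0.85 after the correction, adjusted p 0.038). Uqcrq, a small complex III subunit, was at 98.78, 98.25 and 91.73 FPKM in sham kidneys against 51.88, 48.76 and 50.7 at day 7 (-0.92, and -0.76 after the correction, adjusted p 0.0197). Cox6a1, of cytochrome oxidase, fell from 592.22, 607.78 and 544.07 FPKM to 273.97, 260.58 and 274.53. Its log2 change of -1.10 became -0.44, called in both fits (adjusted p after the correction 0.0366). Without day 7 library 2 the deposited counts were 1 higher and 11 lower, and without sham library 2 or any 1 day 7 library none of the 49 was called after the correction in limma. The mitochondrial genome supplied 25.6% to 27.3% of all FPKM in the sham libraries and 31.7% to 32.6% at day 7. Of the 13 protein genes there, 3 were called higher as deposited, near the 19.3% of all tested genes. After the correction 1 was called higher, against 4.26%. That gene was mt-Nd4l, at 1949.81, 2126.64 and 2482.29 FPKM in sham kidneys against 4674.19, 4467.82 and 4918.15 at day 7. A nuclear-annotated copy of it carried nearly the same values, so its level is uncertain. mt-Co1 was at 24537.12, 23399.42 and 24415.12 FPKM in sham kidneys against 25285.49, 24249.12 and 26817.55 at day 7, and was not called. The summed FPKM of its 3 near copies was lower in the day 7 libraries (13758, 12872 and 13505) than in the sham libraries (22397, 18014 and 19033). The level of mt-Co1 is therefore uncertain too, and the missing call does not show that it was unchanged.

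The injury genes that the drug is known for were mostly not called at day 7. Of 40 tested genes of the tubule injury and repair list, 1 was called higher and 3 lower as deposited, both below the background of 19.3% and 10.4%. Between day 3 and sham 35 were called higher and 1 lower, against 5389 and 2825 of all 13718 tested genes. The gene called higher at day 7 was Prom1, a surface marker of regenerating tubule cells, at 3.1, 3.36 and 5.61 FPKM in sham kidneys against 11.27, 15.56 and 6.72 at day 7. The genes called lower at day 7 were S100a11, Krt7 and Myc, and after the correction none of these 4 was called and 1 other gene, Slpi, was higher at levels under 0.3 FPKM. Krt20, a keratin of injured tubule cells, was at 0.39, 0.73 and 0.09 FPKM in sham kidneys against 0.77, 4.34 and 0.64 at day 7, against 691.26, 669.01 and 590.58 at day 3. Spp1, which encodes osteopontin, was at 675.69, 300.47 and 320.29 FPKM in sham kidneys against 551.74, 1809.51 and 575.54 at day 7. Vcam1, an adhesion molecule of tubule cells with failed repair, was at 0.76, 0.74 and 0.95 FPKM in sham kidneys against 0.8, 7.63 and 0.96 at day 7. For all 3 genes day 7 library 2 alone was clearly above sham, and none was called (adjusted p 0.146, 0.139 and 0.278). Havcr1 and Lcn2 were not called either (log2 change -0.51, SE 1.35, and -0.18, SE 0.75), and Havcr1 stood at 58.22 FPKM in day 7 library 2 against 1.04 and 1.45 in the other 2, with 1 sham library at 35.45. The SE of Havcr1 is so wide that a sizeable difference in either direction was not detectable.

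**Figure D4:**
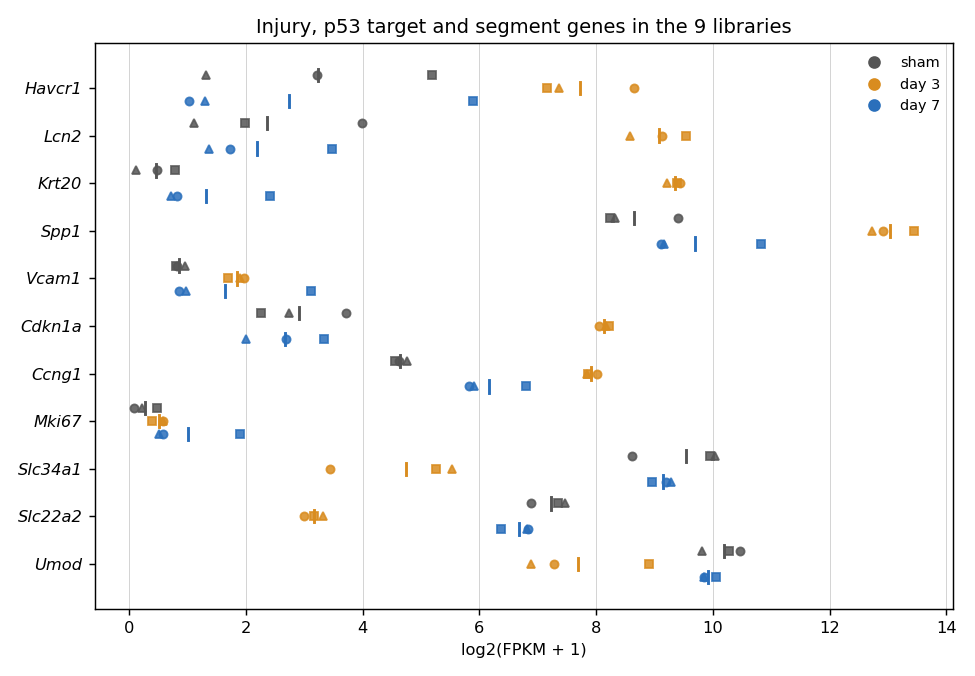
log2(FPKM + 1) in the 3 sham (grey), 3 day 3 (orange) and 3 day 7 (blue) libraries for injury genes, p53 targets and segment genes; circles, squares and triangles are libraries 1, 2 and 3, and the vertical tick is the group mean. Day 3 stands apart for most genes; at day 7 only Ccng1 among the genes drawn lies entirely above sham and is called, and the square of day 7 library 2 is the highest day 7 point of Havcr1, Lcn2, Krt20, Spp1, Vcam1, Cdkn1a, Ccng1 and Mki67.

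Day 7 library 2 stood apart from the other 2 on many such lists. The median over tested members of log2(FPKM + 1) minus the sham mean was 0.64 in library 2 for the injury list, against -0.14 and -0.40 in libraries 1 and 3. It was 0.67 against -0.25 and -0.39 for fibroblast and myofibroblast genes. It was 0.31 against -0.35 and -0.57 for macrophage and monocyte genes, and 0.45 against -0.10 and -0.12 for interferon-stimulated genes. Macrophage and monocyte markers summed to 204 FPKM in library 2, 77.9 and 66.8 in the other day 7 libraries, and 127 to 139 in sham. Without day 7 library 2, 5 of the 17 tested macrophage and monocyte genes were called lower as deposited. In that fit 1006 of all 13718 tested genes were called lower. With all libraries none of the 17 was called lower as deposited, and none was called lower after the correction. In bulk tissue a change in the number of cells of a type and a change in RNA per cell cannot be told apart. Chil3, a chitinase-like protein of alternatively activated macrophages, was the 1 gene of that list called with all libraries. It was at 0.11, 0.03 and 0.03 FPKM in sham kidneys against 5.07, 4.57 and 2.91 at day 7. This is a log2 change of 2.27 (SE 0.49, adjusted p 0.0108) and 2.13 after the correction (adjusted p 0.0421), which no corrected fit without a library kept. All 3 day 7 libraries were above sham, and library 2 was not the highest. No T and NK cell marker reached the filter; the highest of the 20 was at 1.01 FPKM in these 6 libraries.

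Targets of p53, the transcription factor that DNA lesions activate, were called at day 7 at about the share of all tested genes. Of 35 tested, 6 were called higher and 3 lower as deposited, near the background of 19.3% and 10.4%. After the correction Ccng1 was called higher and Sesn2 lower, with 4.26% of all tested genes higher and 1.98% lower. Without sham library 2 or day 7 library 2 the deposited count of higher genes was 3. Ccng1 (chromosome 11, 40748552 to 40755311), which encodes cyclin G1, was at 23.53, 22.61 and 26.01 FPKM in sham kidneys, 55.32, 109.96 and 59.11 at day 7 and 259.02, 232.82 and 229.19 at day 3. Its log2 change was 1.53 (SE 0.23, adjusted p 0.00282) and 1.03 after the correction (adjusted p 0.0352), called in 1 of the 6 corrected fits without a library. Trp53inp1 was at 2.36, 1.52 and 2.36 FPKM in sham kidneys against 5.56, 9.73 and 6.06 at day 7 (log2 change 1.38, adjusted p 0.00256; after the correction 0.71, adjusted p 0.063). Sesn2, a stress sensor that restrains mTORC1, fell from 26.54, 21.5 and 21.18 FPKM to 8.19, 12.04 and 9.06, and after the correction its log2 change was -0.78 (adjusted p 0.043), called in none of the 6 corrected fits without a library. Cdkn1a was not called (log2 change -0.23, SE 0.40). Of 28 genes of DNA replication and mitosis, 4 were called higher and none lower as deposited, with 19.3% of all tested genes higher, and none was called after the correction in limma. Mki67, a marker of dividing cells, did not pass the filter and was listed at 0.06, 0.4 and 0.17 FPKM in sham kidneys against 0.5, 2.75 and 0.43 at day 7.

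Transport genes of the proximal tubule were called at day 7 at about the share of all tested genes. Of 40, 7 were called higher and 3 lower as deposited, close to the background of 19.3% and 10.4%. Between day 3 and sham 1 was called higher and 33 lower, against 5389 and 2825 of all 13718 tested genes. Slc5a12, a sodium-lactate cotransporter, was at 2.75, 5.02 and 10.73 FPKM in sham kidneys against 16.8, 24.28 and 21.67 at day 7 (log2 change 1.76, adjusted p 0.00792; after the correction 1.32, adjusted p 0.0556). Slc6a19, the main neutral amino acid transporter of the brush border, was at 10.26, 15.6 and 17.96 FPKM in sham kidneys against 27.8, 27.88 and 35.27 at day 7. It was the 1 member called after the correction (log2 change 0.89, adjusted p 0.0306). Slc34a1, the phosphate transporter, was at 393.54, 987.55 and 1051.23 FPKM in sham kidneys against 587.23, 497.57 and 619.68 at day 7, and Slc22a2 at 117.09, 161.11 and 176.16 against 113.41, 81.71 and 111.66. Neither was called (adjusted p 0.632 and 0.0559), although all Slc22a2 values at day 7 were below sham. With a log2 change of -0.39 (SE 0.55), the missing call of Slc34a1 does not show that it was unchanged.

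Sham library 1 was low on these genes. The median over proximal tubule transport genes of log2(FPKM + 1), each sham library minus the mean of the other 2, was -0.48 there and 0.16 and 0.38 in libraries 2 and 3. For proximal tubule metabolism it was -0.53, 0.19 and 0.30. The same library was high for urothelium and papilla genes, at 1.27 against -0.96 and -0.31. Without sham library 1 the proximal tubule transport counts were 3 higher and 4 lower as deposited. They were also 3 or 4 higher without sham library 2 or any 1 day 7 library. Of 41 genes of proximal tubule metabolism, 1 was called higher and 2 lower as deposited, both below the background. After the correction 2 were lower, with 1.98% of all tested genes lower. Nat8, an N-acetyltransferase of proximal tubule cells, was among them. It was at 193.05, 300.48 and 232.05 FPKM in sham kidneys, 121.25, 76.27 and 110.12 at day 7 and 7.7, 5.59 and 7.89 at day 3. Its log2 change was -1.23 (SE 0.22, adjusted p 0.00524), and -0.93 after the correction (adjusted p 0.0473), which no corrected fit without a library kept.

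In the distal nephron, the distal convoluted and connecting tubule list had 7 of 18 genes called higher and 1 lower as deposited, against backgrounds of 19.3% and 10.4%, with a median change of 0.56 against 0.06 over all tested genes. The summed FPKM of the list went the other way, from 5157, 4291 and 4473 in sham to 2668, 2208 and 3009 at day 7. Its highest member reached 3537 FPKM in these 6 libraries. After the correction only Slc8a1, described above, remained called. Slc12a3, the thiazide-sensitive sodium chloride cotransporter, was at 29.27, 43.8 and 46.2 FPKM in sham kidneys against 61.92, 58.92 and 77.54 at day 7 (log2 change 0.74, adjusted p 0.0312; after the correction 0.86, adjusted p 0.0515). Trpm7, a magnesium and calcium channel, was at 3.28, 2.59 and 2.29 against 9.21, 7.53 and 6.3 (1.22, adjusted p 0.00597; after the correction 0.53, adjusted p 0.21). The deposited count of higher genes fell to 4 without sham library 1, sham library 2 or day 7 library 3 and to 3 without day 7 library 2. In every fit without a library 1 gene was called lower as deposited. In the thick ascending limb, 4 of 18 were called higher and 2 lower as deposited, near the background of 19.3% and 10.4%, and none after the correction in limma. Slc12a1, the loop diuretic target NKCC2, was at 113.07, 74.56 and 51.64 FPKM in sham kidneys against 172.39, 207.7 and 165.8 at day 7. Umod was at 1409.45, 1246.6 and 894.46 against 919.62, 1066.41 and 926.08 and was not called.

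Of 18 tested genes of intercalated cells, the acid-base cells of the collecting duct, 2 were called higher and none lower in both fits. This is below the 19.3% of all tested genes higher as deposited, and stands against 4.26% after the correction. Car2 (chromosome 3, 14886273 to 14900770), the cytosolic carbonic anhydrase, was at 81.89, 99.05 and 104.94 FPKM in sham kidneys against 168.08, 205.9 and 188.6 at day 7. Its transcript has 49.1% GC, near the median, and its log2 change was 0.97 (SE 0.14, adjusted p 0.00244) as deposited and 1.04 after the correction (adjusted p 0.0102), called in all 6 corrected fits without a library. Atp6v0d2, a subunit of the proton pump, was at 10.69, 11.03 and 10.46 FPKM in sham kidneys against 18.25, 23.61 and 19.64 at day 7. After the correction its log2 change was 0.46 (adjusted p 0.0495), and it lost its call in every corrected fit without a library. The other 16 tested intercalated cell genes were not called in either fit.

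Other gene groups had far fewer calls after the correction than as deposited. Of 52 tested cytosolic ribosomal protein genes, 28 were called lower and none higher as deposited, against backgrounds of 10.4% and 19.3%. After the correction 7 were called lower and none higher, against backgrounds of 1.98% and 4.26%. Their median change was -0.46 as deposited and -0.23 after the correction, and it was also below 0 with median-of-ratios scaling (-0.60) and without mitochondrial DNA genes in the total (-0.25). Rpl18 was at 38.69, 39.79 and 34.06 FPKM in sham kidneys against 20.96, 22.33 and 17.64 at day 7 (log2 change -0.86, adjusted p 0.00227; after the correction -0.69, adjusted p 0.0191). The deposited count was 15, 16 and 14 without sham library 2, day 7 library 1 and day 7 library 3, and the corrected count was 0 without each of these 3, 3 without sham library 1 and 1 without day 7 library 2. Many ribosomal protein genes have processed copies in the genome, which makes their single values uncertain.

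Splicing factors, with a median GC content of 43.2%, had 17 of 38 genes called higher and none lower as deposited, against backgrounds of 19.3% and 10.4%, and 3 higher after the correction, against 4.26%. Hnrnpu was at 11.73, 11.39 and 11.38 FPKM in sham kidneys against 24.45, 29.31 and 26.7 at day 7. Its log2 change of 1.15 (SE 0.10, adjusted p 0.0011) was 0.47 after the correction (adjusted p 0.0335). The list median was 0.55 as deposited and 0.14 after the correction. Without day 7 library 2 the deposited count was 11, and no splicing factor was called after the correction without sham library 2 or any 1 day 7 library.

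Cholesterol synthesis and uptake genes had 10 of 26 called higher and 1 lower as deposited, against backgrounds of 19.3% and 10.4%. None was called after the correction in limma, although the list median was nearly the same, 0.41 and 0.43. Hmgcs1, the enzyme that makes HMG-CoA, was at 38.41, 60.75 and 77.68 FPKM in sham kidneys against 142.76, 133.49 and 145.86 at day 7 (log2 change 1.30, adjusted p 0.00628; after the correction 0.89, adjusted p 0.0599). Idi1, a later enzyme of the pathway with near copies and so an uncertain level, was at 1.19, 7.99 and 15.95 FPKM in sham kidneys against 34.56, 32.35 and 47.23 at day 7. Sham library 1 was the lowest of the sham libraries on this list, with a median of -0.65 against 0.55 and 0.08, each against the mean of the other 2 sham libraries. The deposited count of higher genes was 5 without day 7 library 1 or 3 and 6 without day 7 library 2.

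**Figure D5:**
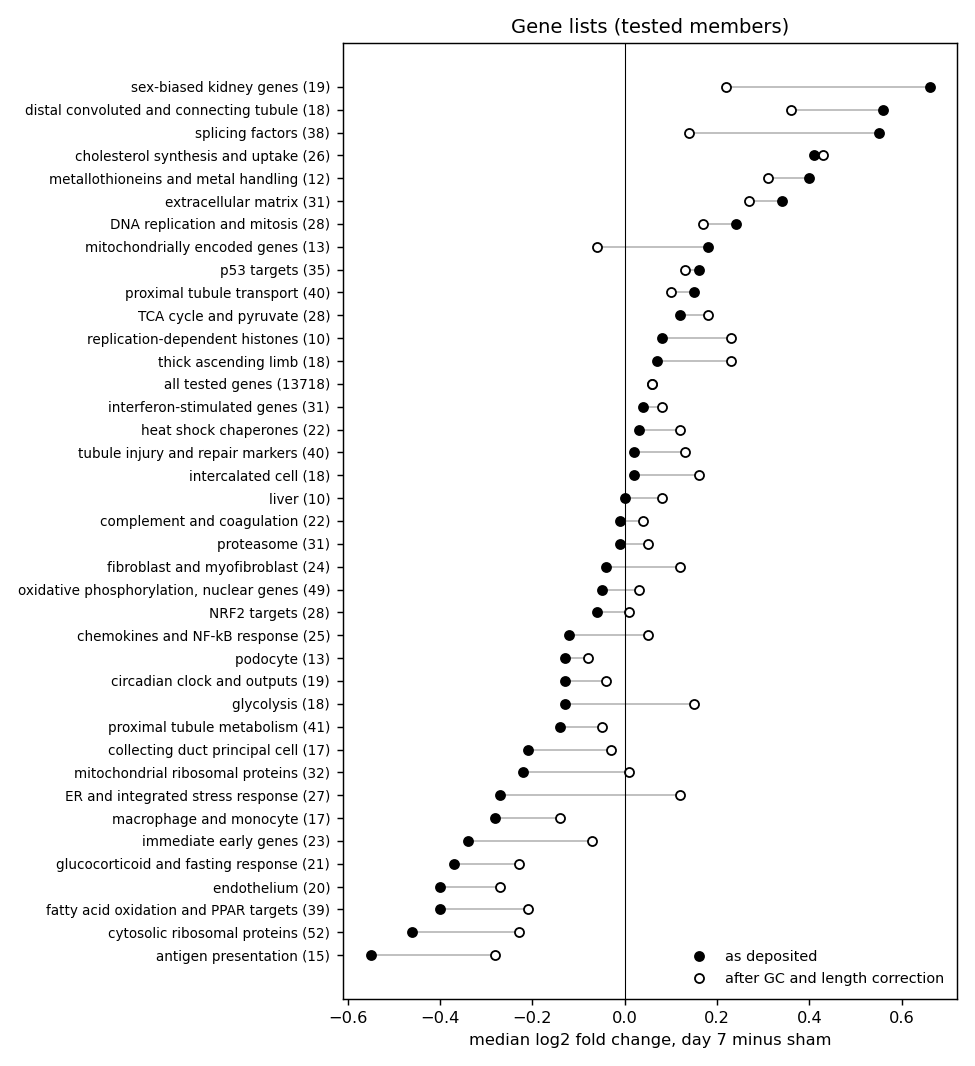
Median log2 fold change, day 7 minus sham, of each gene list with at least 10 tested members (number in brackets), as deposited (filled) and after the GC and length correction (open); the row of all tested genes lies at 0.06 in both. The correction moves the splicing factor median from 0.55 to 0.14 and that of the cytosolic ribosomal proteins from -0.46 to -0.23, while the cholesterol list stays at 0.41 and 0.43.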

How the data were processed

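RNA from mouse kidney was extracted with TRIzol and made into libraries with a directional kit, per the labels' protocols. The authors deposited FPKM for each gene in each library; the submitters' processing notes list GRCm38 and the tools FastQC 0.10.1, StringTie and HISAT, with no role or order. Their settings and the read counts were not used here, which leaves the depth unknown and allows no counting interval, and a 0 means listed at 0. FPKM is relative within a library.

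Gene IDs were matched to GENCODE M21 (55144 of 55385). log2(FPKM + 1), which understates changes of low genes, was fitted with limma 3.58.1 in R 4.3.3 (3 group means over 9 libraries, mean-variance trend, two-sided, Benjamini-Hochberg adjustment over all tested genes, threshold 0.05). For the correction, natural splines (5 degrees of freedom each) of GC content and log10 length of the longest transcript were removed per library; 13707 tested genes have both. The procedure was tested on simulated data. Near copies were found with minimap2 2.31-r1302 as transcripts with at least 90% identity.

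Named genes were the 10 largest changes each way called in both fits whose groups do not overlap and have a mean of 5 FPKM or more in at least 1 of them, the 3 largest each way not called after the correction, up to 2 called members of each list, and 14 genes always given; predicted genes and pseudogenes were left out of the first 2 sets. The results of 2 genes that the rule names are not reported here. Members of the lists outside this rule (Dlat, Pdha1, Idh3a, Idh3g, Ndufs1, Uqcrq, Slc6a19, Slc12a3, Rpl18, Slpi, Krt7, Myc and those of the closing section) were chosen after their values were seen. The comparison, the 46 gene lists (1094 genes, 966 tested) and the rule were chosen with earlier results of these data known. Alternatives were other scalings, filters, pseudocounts and corrections, and leaving out each library.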

Additional observations from a re-analysis of the deposited data

Results flagged for a closer look

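For 8 named genes the changes at day 3 and at day 7, each against sham, were called in opposite directions both as deposited and after the GC and length correction, and the difference between day 7 and day 3 was itself called in limma. Day 7 minus day 3 on the log2 scale was 2.99 for Slc8a1, 2.93 for Oxct1, 2.96 for Slc10a5 and 2.38 for Col4a3, which encodes a chain of the glomerular and tubular basement membrane; these were below sham at day 3 and above it at day 7. It was -3.16 for the clock gene Per1, -2.15 for Ly6e, -2.06 for Sesn2 and -1.50 for Rps16, which were above sham at day 3 and below it at day 7. Col4a3 was at 23.1, 18.16 and 19.47 FPKM in sham kidneys, 8.44, 6.84 and 5.59 at day 3 and 43.71, 40.21 and 36.25 at day 7. Per1 was at 4.33, 5.16 and 4.29 FPKM in sham kidneys, 15.9, 26.25 and 20.83 at day 3 and 1.52, 1.69 and 1.08 at day 7. Rps16 has expressed near copies and an uncertain level. The corrected day 7 calls rest on single libraries: of the 6 corrected fits without a library, none called Per1 or Sesn2, 1 called Slc8a1 and Col4a3, and 2 called Oxct1, Slc10a5 and Rps16. For Ly6e it was 4. In all, 77 of the 103 tested named genes reported here differed between day 7 and day 3, against 55.4% of all tested genes. Most named genes were chosen because they were called at day 7.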

How the results depend on the processing

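The number of genes called, 4075, was 856 with the GC and length correction (584 higher, 272 lower), 1343 with GC correction alone (884 and 459), 443 with the replicate block and the correction together (287 and 156) and 564 with a 2-fold minimum. Leaving out 1 library gave 2470 to 3760 calls; higher genes then numbered 1693 to 2463 and lower genes 724 to 1500, and the total moved by over 1.5 times without sham library 2 or any 1 of the day 7 libraries. With a filter at 5 FPKM 1675 genes were higher; lower genes numbered 2321 with median-of-ratios scaling and 652 without mitochondrial DNA genes in the total. After the correction 856 genes were called with all libraries, and refits without 1 library, which hold fewer samples, called 98 to 661. The corrected fit called 443 genes with the replicate block and 588 with GC and length of the coding transcript. These are totals of each refit, which need not lie among the 856. Under the other alternatives run the count stayed within 1.5 times. The GC trend, 1.0 between the lowest and highest bins, was 1.38 with pseudocount 0.1, 1.24 with a filter at 5 FPKM, 1.08 with a filter on the 6 libraries and 0.97 to 1.07 without 1 library. Of the 91 named genes reported here that were called as deposited, 53 lost their call with the correction, and none changed sign in any alternative run. Named genes that were not called did change sign, as Lcn2, from -0.18 to 0.25 with the correction.

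Same-numbered sham and day 7 libraries had deviations correlated at 0.19, -0.01 and 0.24, so the numbers were not taken as pairs. The replicate block alone gave 3885 calls, and 4 named genes lost theirs. The counts of list members without 1 library were added after seeing the data. Unknown depth and 3 libraries per group limit all calls.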

Other observations

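Other genes of basement membrane collagen, Col4a4 and Col4a5, rose as deposited, as did Col4a3: Col4a4 from 19.72, 19.07 and 18.21 FPKM in sham to 35.43, 32.4 and 29.58 at day 7 (log2 change 0.74, adjusted p 0.0174 in limma), and Col4a5 from 5.3, 3.36 and 3.5 to 9.61, 8.42 and 7.6 (0.93, adjusted p 0.0259). After the correction neither passed (adjusted p 0.106 and 0.1). Of 31 tested extracellular matrix genes these 3 were called higher as deposited and none lower, below the background of 19.3%, and Col4a3 was called after the correction. Col1a1, the main fibrillar collagen, was at 1.93, 4.38 and 3.51 FPKM in sham kidneys against 2.52, 7.66 and 2.15 at day 7.

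Of 28 tested NRF2 targets, 3 were called lower (Hmox1, Fth1 and Ftl1) and none higher as deposited, near the 10.4% of all tested genes called lower. Of 12 genes of metallothioneins and metal handling, 4 were called higher (Tfrc, Slc40a1, Slc30a1 and Slc31a1) and none lower, against 19.3% higher. None of these 7 was called after the correction in limma. Tfrc, Hmox1 and Ftl1 were named by the rule, Fth1 was not, and which values to print was decided after they were seen. Ftl1, which has expressed near copies, had a log2 change of -0.90 (adjusted p 0.00174 in limma). After the correction it was -0.27 (adjusted p 0.213). Tfrc, the transferrin receptor, was at 3.6, 6.05 and 4.18 FPKM in sham kidneys against 19.14, 10.63 and 19.82 at day 7 (log2 change 1.62, adjusted p 0.00297; after the correction 1.0, adjusted p 0.0633). Fth1, a ferritin subunit, was at 1385.23, 1315.56 and 1290.92 FPKM in sham kidneys against 764.26, 681.93 and 749.61 at day 7 (-0.86, adjusted p 0.0181; after the correction -0.79, adjusted p 0.0712). Hmox1, which frees iron from heme, was at 38.93, 29.22 and 30.11 FPKM in sham kidneys against 19.26, 15.07 and 17.74 at day 7, against 171.79, 128.92 and 119.93 at day 3 (-0.87, adjusted p 0.00751; after the correction -0.55, adjusted p 0.102).

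Of 22 heat shock chaperone genes, 6 were called higher and 1 lower as deposited, against backgrounds of 19.3% and 10.4%, and 2 higher after the correction, against 4.26%. These 2 were Hspd1, which encodes the mitochondrial chaperonin HSP60, and Hspa4, called in both fits. Hspd1 was at 79.91, 105.71 and 159.57 FPKM in sham kidneys against 271.04, 279.98 and 292.03 at day 7 (1.34, adjusted p 0.00337; after the correction 1.21, adjusted p 0.0191); it has near copies at low levels. Hspa4 was at 18.95, 19.9 and 20.23 FPKM in sham kidneys against 36.81, 39.28 and 35.93 at day 7 (0.89, adjusted p 0.00146; after the correction 0.60, adjusted p 0.0191). Each was called in 2 of the 6 corrected fits without a library.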
